A study of Mus musculus with 6 samples.

Results

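The 8 genes described here encode Eph receptors of the A type (Epha3, Epha4, Epha5, Epha6, Epha7 and Epha8) and of the B type (Ephb1 and Ephb2). The rule lists them by name and uses no measured value, but the list was made with earlier results of these data known. It leaves out 6 other Eph receptors, which are described further below. All 8 were found among the 21755 protein-coding genes of chromosomes 1 to 19 and X in the GENCODE vM21 annotation of mm10. The measurement was BLISS, break labelling in situ and sequencing, in which adaptors are ligated to free DNA ends inside fixed nuclei, so that each read begins at a break. Neurons sorted from the forebrain of CK-p25 mice were used, with 2 libraries each for the groups named Step2, Step1 and Con. CK-p25 mice carry a p25 transgene, under the control of a forebrain neuron promoter, that is expressed when doxycycline is absent, and p25 activates the kinase Cdk5. The genotype CK-p25 and the treatment, 2 weeks of induction by taking doxycycline out of the diet, are given for Con as well as for Step1 and Step2, so Con is not an uninduced or transgene-free group by its labels. What sets the 3 groups apart, the age and number of the mice, and whether the 2 libraries of a group came from different mice are left unstated by the labels. Each p-value is therefore a statement about spread among libraries that could be technical repeats.

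Eph receptors are receptor tyrosine kinases that bind ephrins, which are themselves anchored in the membrane of neighbouring cells, so that both cells can signal at a contact. A-type receptors mostly bind ephrin-A ligands and B-type receptors mostly bind ephrin-B ligands, while EphA4 binds both. In the nervous system they are known for guiding axons, forming topographic maps and shaping dendritic spines, and in cultured neurons the p25 target kinase Cdk5 acts downstream of EphA4 on the exchange factor ephexin1. BLISS counts broken ends of DNA and not transcripts, so nothing below is a level of expression.

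The receptor genes are long. Their bodies add up to 2586 kb, which is 0.101% of the genome, and exons make up 2.82% of that length. Epha6 lies on chr16:59653483-60605531 and spans 952 kb, 36.8% of the sum. Ephb1 on chr9:101922128-102354693 spans 433 kb, Epha5 on chr5:84054761-84417382 spans 363 kb and Epha3 on chr16:63543534-63864175 spans 321 kb. Ephb2 on chr4:136647539-136835988 spans 188 kb, Epha7 on chr4:28813131-28967499 spans 154 kb and Epha4 on chr1:77367185-77515088 spans 148 kb. Epha8, on chr4:136929419-136956816, is the only short one with 27.4 kb. Epha7 is on the plus strand and the other 7 genes are on the minus strand. Ephb1 overlaps another protein-coding gene, 9630041A04Rik, over 21.1 kb, and reads there were counted for both.

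Depth was 1526487 and 1480461 reads in Step2, 2403238 and 2043098 in Step1, and 2300995 and 2273508 in Con. Values are given as CPM, the reads in a gene per 1000000 reads of the library on chromosomes 1 to 19 and X. That total leaves out 26 windows of 10 kb in which reads pile up, none of them in a receptor gene. A CPM says what share of a library's ends lay in a gene, so fewer ends in the gene and more ends elsewhere cannot be told apart. Each value was computed from all reads, which the submitters had already freed of PCR duplicates, and again with 1 read per position and strand. Reads per position over the genome were 1.19 and 1.22 in Step2, 1.13 and 1.16 in Step1, and 1.24 and 1.37 in Con, so repeats were most frequent in Con; their part in the differences was not tested apart from the second count. The 4 marker lists (neuron, astrocyte, oligodendrocyte and microglia) had 0.380 to 0.458 CPM per kb in every group mean with 1 read per position and strand, close to the genome mean of 0.391, so break ends say nothing either way about the neuronal label.

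The stretch just before the start of Epha4 held far more ends than that of any other member. The 250 bases upstream of the gene start, chr1:77515089-77515338, held 3 and 3 reads in Step2, 2 and 3 in Step1, and 7 and 10 in Con. That is 28 reads at 21 positions in the 6 libraries together, where the genome mean gives 1.12. The same stretch of Epha7, chr4:28812881-28813130, held 0 and 0 reads in Step2, 0 and 2 in Step1, and 1 and 5 in Con. The stretch of Epha8, chr4:136956817-136957066, held 0 reads in all 6 libraries, and a count of 0 allows up to 3. These 3 sequences are shown because Epha4 and Epha7 held the most ends of the 8 genes here, while Epha8, with the most CG pairs, held none. They are from the RefSeq promoter table for GRCm38.p6, in which all 8 receptors were found, are written 5′ to 3′ on the strand of the gene, and have every CG pair in capitals.
Epha4: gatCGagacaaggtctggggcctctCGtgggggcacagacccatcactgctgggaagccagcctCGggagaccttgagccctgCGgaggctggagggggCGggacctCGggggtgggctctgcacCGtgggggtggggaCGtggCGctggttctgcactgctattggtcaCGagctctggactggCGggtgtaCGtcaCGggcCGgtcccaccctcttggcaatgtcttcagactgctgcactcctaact
Epha7: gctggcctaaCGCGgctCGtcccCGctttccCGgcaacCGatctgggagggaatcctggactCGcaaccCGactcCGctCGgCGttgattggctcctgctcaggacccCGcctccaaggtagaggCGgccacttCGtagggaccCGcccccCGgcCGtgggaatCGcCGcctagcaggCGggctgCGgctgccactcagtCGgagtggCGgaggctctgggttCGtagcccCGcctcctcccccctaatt
Epha8: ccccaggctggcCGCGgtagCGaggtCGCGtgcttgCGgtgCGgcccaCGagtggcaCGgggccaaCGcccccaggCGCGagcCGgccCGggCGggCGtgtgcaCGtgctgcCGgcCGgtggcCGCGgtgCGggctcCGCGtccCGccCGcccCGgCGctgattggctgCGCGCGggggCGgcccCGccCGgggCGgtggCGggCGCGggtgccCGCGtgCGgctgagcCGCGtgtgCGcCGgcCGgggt
Epha4 has 14 CG pairs in this stretch, Epha7 has 25 and Epha8 has 46. Over all 32851 promoters of the table the median is 6, and 29.4%, 10.7% and 0.323% of them hold at least as many as Epha4, Epha7 and Epha8. The other 5 receptors hold 10 to 20 CG pairs and 0 to 3 reads. No motif other than the CG pair was counted here for these sequences, and the count of CG pairs is a description of the letters only.

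Taken over 1 kb on each side of the start, the 8 starts together held 15 and 7 reads in Step2, 16 and 21 in Step1, and 18 and 31 in Con. Epha4 again had the most, with 4 and 3 reads in Step2, 6 and 4 in Step1, and 8 and 12 in Con. Its density there was 3.95 times that of its own body. Over all 21755 starts the mean density was 3.49 times the genome mean, a ratio to another base. The median start held 10 reads in the 6 libraries together, against 37 for Epha4. At least as many reads as that of Epha4 were held by 5.10% of starts, so its count was uncommon but not particular to it. Ephb1 followed with 2 and 2 reads in Step2, 2 and 5 in Step1, and 0 and 8 in Con, and its libraries overlapped. Epha5, Ephb2 and Epha8 had 4 to 6 reads in all and lay below their own bodies in density, a difference that was not tested. Over 2 kb on each side Ephb2 lay above its body, at 1.15 times, and Epha5 and Epha8 stayed below theirs. None of the 8 starts reached the minimum of 10 reads in at least 2 libraries, so none could be fitted and the group differences at the starts are not tested.

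Per kilobase, the receptor genes sat around the genome mean, with Epha7 at the top and the 2 most GC-rich genes at the bottom. In the order of their mean over the 6 libraries, all reads, the densities were 0.480 CPM per kb for Epha7, 0.425 for Epha3, 0.398 for Epha4, 0.393 for Epha6, 0.391 for Epha5, 0.382 for Ephb1, 0.315 for Ephb2 and 0.296 for Epha8. The 2489 genes of at least 100 kb had a median of 0.392, with 90% of them between 0.326 and 0.454. Epha7 lay above 98.2% of these long genes, and Ephb2 above 3.25%. Pooled over libraries, the ratio to the genome mean was 1.24 for Epha7 with a 95% exact Poisson interval of 1.16 to 1.33, 1.10 (1.04 to 1.15) for Epha3, 0.825 (0.765 to 0.889) for Ephb2 and 0.732 (0.589 to 0.900) for Epha8. These intervals cover counting error only and treat reads as separate breaks. The intervals of Epha4, Epha5, Epha6 and Ephb1 all included 1, and these neighbours in the order were not separated by counting error. Epha8 rests on 90 reads in all, against 4332 for Epha6.

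Counting 1 read per position and strand brought Epha7 closer to the other genes. Its density became 0.438 CPM per kb, above 90.8% of long genes, and its ratio to the genome mean 1.13 (1.04 to 1.22). Ephb2 and Epha8 kept ratios below 1, with 0.847 (0.780 to 0.919) and 0.722 (0.566 to 0.908). With this count the order of the 8 genes nearly followed their base composition, as seen in the plot of density against GC content. Epha5, Epha7, Epha3 and Epha6 have 35.2%, 36.3%, 36.1% and 37.4% GC, Epha4 has 42.8%, Ephb1 46.0%, Ephb2 52.1% and Epha8 56.2%. Spearman's rho between density and GC content was -0.90 over the 8 genes and -0.33 over the 2489 long genes. With all reads it was -0.71 and -0.41. These values describe genes that share the same 6 libraries.

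**Figure D1:**
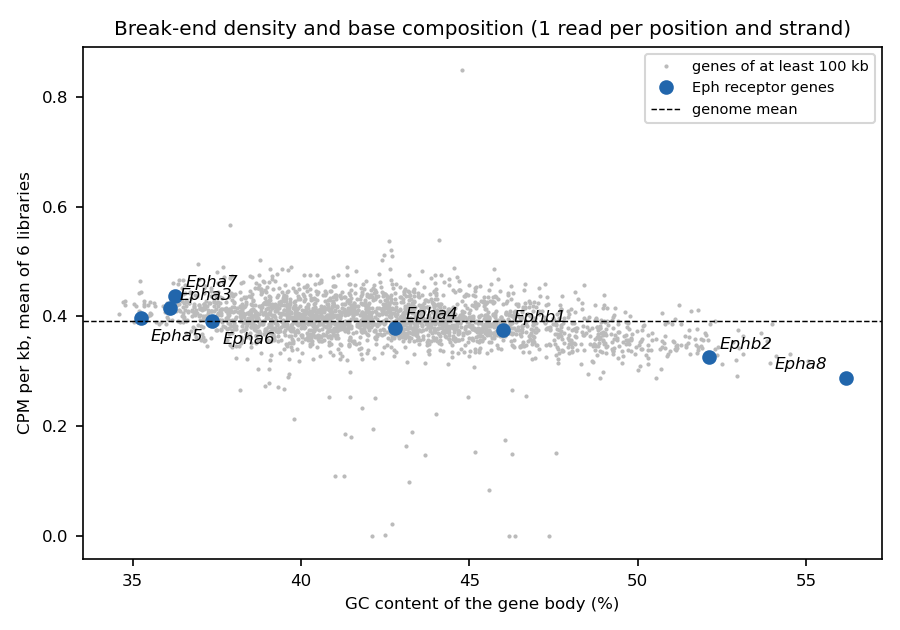
Each point is a gene, with the GC content of its body in percent on the x axis and its mean CPM per kb over the 6 libraries, counting 1 read per position and strand, on the y axis; grey points are the 2489 genes of at least 100 kb, blue points the 8 receptors, and the dashed line the genome mean of 0.391. Epha7 at 0.438 lies highest among the receptors, and Ephb2 at 0.326 and Epha8 at 0.288 lie lowest and furthest to the right.

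Most reads of the receptor genes lay in introns and were spread along the whole body. Exons, at 2.82% of the length, held 3.93% and 2.98% of the reads in Step2, 2.91% and 3.13% in Step1, and 3.51% and 3.65% in Con. When the receptor genes other than Epha8 were each cut into 10 equal parts from start to end, the parts held 8.73% to 10.7% of the reads on average. In the 27 windows of 100 kb with their midpoint in a receptor gene, the lowest mean was 29.8 CPM, in Epha6 156 kb from its start, and the highest 49.2 CPM, in Epha7 137 kb from its start.

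**Figure D2:**
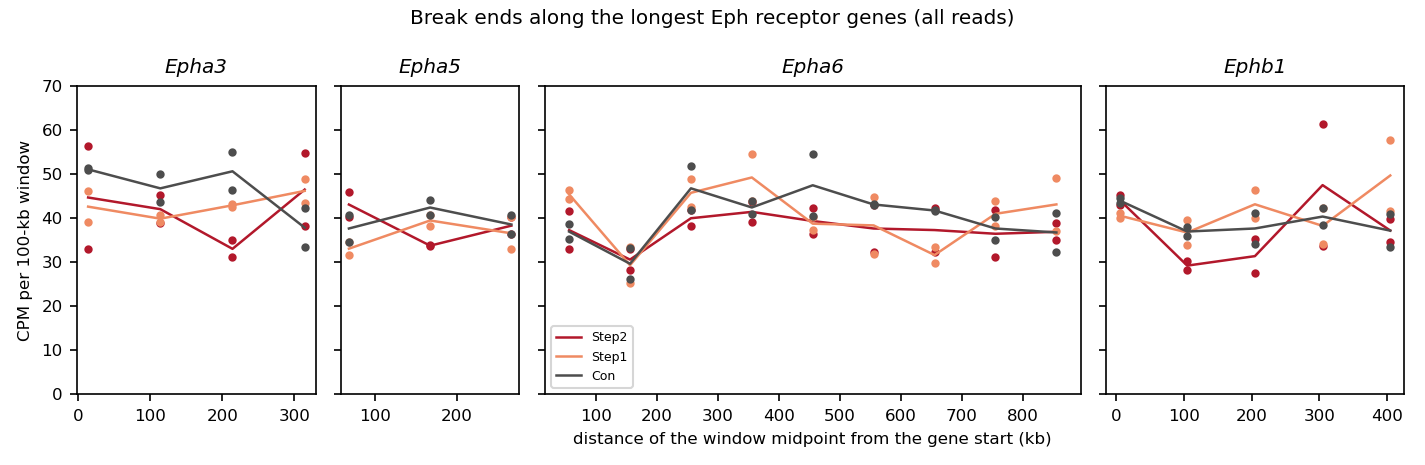
CPM of all reads in 100-kb windows (y axis) against the distance of the window's midpoint from the gene start in kb (x axis), for the 4 longest receptor genes; points are libraries and lines join group means of Step2, Step1 and Con. The second window of Epha6 is low in all 3 groups, with a mean of 29.8 CPM over the 6 libraries, and the groups cross along each gene.

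Breaks were rarely found at the same base in different libraries. The 8 genes held 9442 distinct positions with a strand, of which 83, or 0.879%, were seen in 2 or more libraries and 1 in 3 or more. Reads per position in the 8 genes were 1.19 and 1.22 in Step2, 1.15 and 1.19 in Step1, and 1.27 and 1.39 in Con, close to the values over the genome. Each gene nevertheless had a position with a stack of reads in a single library. The largest stacks in Epha7 and Epha3 both held 17 reads, that of Epha7 in replicate 1 of Con and that of Epha3 in replicate 2 of Con, and no other library had a read at either position. Ephb1 had 14 reads at 1 position in replicate 2 of Step2, with 1 read in replicate 1. Epha5 had 10 reads at 1 position in replicate 1 of Step1, with 1 read in replicate 2. Ephb2 had 11 reads at 1 position in replicate 2 of Con and none elsewhere. The stacks of Epha7 and Ephb2 lie in coding exons and the other 3 in introns.

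The largest stack of Epha6 held 13 reads in replicate 2 of Con, and those of Epha4 and Epha8 held 10 and 6 there. The sequence around 5 stacks is shown, those of Epha7 and Epha3 as the highest of all, those of Ephb1 and Epha5 as the ones outside Con, and that of Ephb2 as the other one in a coding exon. At none of these positions did another library have more than 1 read. Each line gives 41 bases of mm10 on the strand of the reads, with the base at which the reads begin and the 20 bases after it in capitals. The stretches are chr4:28935717-28935757, minus strand, for Epha7, chr16:63625730-63625770, minus strand, for Epha3, chr9:102088834-102088874, plus strand, for Ephb1, chr5:84407183-84407223, minus strand, for Epha5, and chr4:136693731-136693771, minus strand, for Ephb2.
Epha7: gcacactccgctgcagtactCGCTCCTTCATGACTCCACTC
Epha3: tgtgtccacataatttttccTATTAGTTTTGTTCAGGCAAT
Ephb1: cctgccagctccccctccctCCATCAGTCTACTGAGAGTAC
Epha5: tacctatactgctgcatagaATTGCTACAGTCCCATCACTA
Ephb2: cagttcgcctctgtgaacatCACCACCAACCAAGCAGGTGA
The 17 reads of Epha7 were 8.29% of that library's reads in the gene, and the 17 of Epha3 were 5.09%. Each stack counts once with 1 read per position and strand.

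Among the receptors of the A type, Epha3, Epha4 and Epha7 had the lower values in the Step groups. Epha3, a receptor of axon repulsion, had 129.6 and 127 CPM in Step2, 126 and 128 in Step1, and 154 and 153 in Con. All 4 libraries of Step2 and Step1 lay below both of Con, and Step2 and Step1 overlapped. The fitted log2 fold change was -0.27 ± 0.10 for Step1 against Con (adjusted p = 0.557) and -0.26 ± 0.12 for Step2 against Con (adjusted p = 0.604). In ratios, Step1 was 0.828 of Con with a 95% interval of 0.716 to 0.957, and Step2 was 0.836 of Con with 0.710 to 0.984. Counting 1 read per position and strand, which takes the stack in Con down to a single read, the ratios were 0.860 (0.756 to 0.979) for Step1 over Con and 0.867 (0.749 to 1.004) for Step2 over Con, so the second interval included 1.

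Epha7, which is known for an isoform without the kinase domain that favours adhesion in the closing neural tube, had 65.1 and 67.0 CPM in Step2, 62.3 and 75.7 in Step1, and 93.0 and 81.5 in Con. Both Step groups lay below Con without overlap. The fit gave -0.35 ± 0.15 for Step1 against Con (adjusted p = 0.615) and -0.40 ± 0.16 for Step2 against Con (adjusted p = 0.558). With 1 read per position and strand, which removes the exon stack in Con, the values were 62.9 and 57.5 CPM in Step2, 59.6 and 69.3 in Step1, and 75.6 and 80.5 in Con. The fold changes became -0.29 ± 0.13 and -0.37 ± 0.15, with adjusted p of 0.542 and 0.483, and the groups still did not overlap. The size of the Epha7 difference varied with the sequencing run. With all reads, Step1 against Con was -0.15 in run 1 and -0.52 in run 2, and Step2 against Con was -0.16 in run 1 and -0.66 in run 2. Leaving out each library in turn gave -0.48 to -0.20 for Epha7 in Step1 against Con, the smallest without replicate 1 of Step1.

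Epha4 had 54.2 and 43.7 CPM in Step2, 62.3 and 54.1 in Step1, and 63.5 and 75.1 in Con. Both Step2 libraries and both Step1 libraries lay below Con, the Step1 replicate 1 library by little. Step2 against Con gave -0.50 ± 0.19, a ratio of 0.709 (0.544 to 0.922) with an adjusted p of 0.507. Step1 against Con gave -0.24 ± 0.16 (adjusted p = 0.776), and between -0.36 and -0.12 with each library left out in turn, where the values nearest 0 came without replicate 2 of Con and without replicate 2 of Step1. Step2 against Con was -0.36 in sequencing run 1 and -0.62 in run 2. The Epha4 fold changes with 1 read per position and strand were -0.40 ± 0.17 for Step2 against Con and -0.21 ± 0.14 for Step1 against Con. The Step2 value by that count was -0.19 in run 1 and -0.57 in run 2, and between -0.57 and -0.24 with each library left out, nearest 0 without replicate 2 of Step2 and without replicate 2 of Con. The Step1 value was between -0.37 and -0.056, nearest 0 without replicate 2 of Con and furthest without replicate 1 of Con. The 100 kb on either side of Epha4 showed the same order of group means with all reads, with 0.337 ± 0.028 CPM per kb in Step2, 0.446 ± 0.061 in Step1 and 0.510 ± 0.042 in Con upstream (SD, n = 2 each), and 0.389 ± 0.012, 0.425 ± 0.069 and 0.517 ± 0.013 downstream. The downstream means with 1 read per position and strand were 0.440 ± 0.003 in Step2, 0.438 ± 0.062 in Step1 and 0.526 ± 0.003 in Con, so Step2 was no longer below Step1 there. Around Epha3 and Epha7 this was not so. Downstream of Epha3 the means were 0.437 ± 0.080 in Step2, 0.469 ± 0.081 in Step1 and 0.324 ± 0.028 in Con, and downstream of Epha7 they were 0.453 ± 0.058, 0.423 ± 0.052 and 0.458 ± 0.013.

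The remaining A-type genes showed smaller or less certain differences. Epha6, the longest and the most precisely measured, had 340.0 and 369.6 CPM in Step2, 390.2 and 372 in Step1, and 369 and 405 in Con. Step2 lay below Step1, and Con overlapped both. Its Step1 over Con ratio was 0.988 with an interval of 0.911 to 1.07, and its Step2 over Con ratio 0.916 with 0.831 to 1.01. With 1 read per position and strand, Epha6 had 352 and 367 CPM in Step2, below the 375 and 398 in Con. That fit gave -0.10 ± 0.06 for Step2 against Con (adjusted p = 0.695). Epha5, which takes part in graded axon maps, had 147 and 136 CPM in Step2, 138 and 139.6 in Step1, and 148 and 142 in Con, with ratios of 0.957 (0.829 to 1.11) for Step1 over Con and 0.980 (0.835 to 1.15) for Step2 over Con. Differences larger than these bounds are outside the intervals for both genes, and differences within them were not detectable. Epha8 had 15 and 14 reads in Step2, 14 and 14 in Step1, and 10 and 23 in Con, or 10.3 and 9.87 CPM, 6.14 and 7.21 CPM, and 4.54 and 10.5 CPM. Its Con libraries enclosed all others, and the interval of Step2 over Con ran from 0.770 to 2.76.

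Of the B-type receptors, Ephb2, which associates with NMDA receptors and takes part in spine formation, had 47.3 and 52.2 CPM in Step2, 69.7 and 52.5 in Step1, and 64.0 and 70.1 in Con. Step2 lay below both other groups, though its higher library was close to the lower one of Step1, and Step1 and Con overlapped. The fit gave -0.43 ± 0.19 for Step2 against Con (adjusted p = 0.597) and -0.13 ± 0.16 for Step1 against Con (adjusted p = 0.899). Counting 1 read per position and strand made the Step2 difference smaller, -0.25 ± 0.16 with an adjusted p of 0.722, and with all reads at a mapping quality of 42 the Ephb2 value was -0.27. Ephb1, known for steering uncrossed axons at the optic chiasm, had 148 and 166 CPM in Step2, 157 and 190.0 in Step1, and 164 and 167 in Con, and its groups overlapped. Its ratios were 1.03 (0.900 to 1.19) for Step1 over Con and 0.949 (0.809 to 1.11) for Step2 over Con. Leaving out the 21.1 kb shared with 9630041A04Rik gave 141 and 159 CPM in Step2, 148 and 180.3 in Step1, and 150.2 and 157 in Con, which also overlapped.

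**Figure D3:**
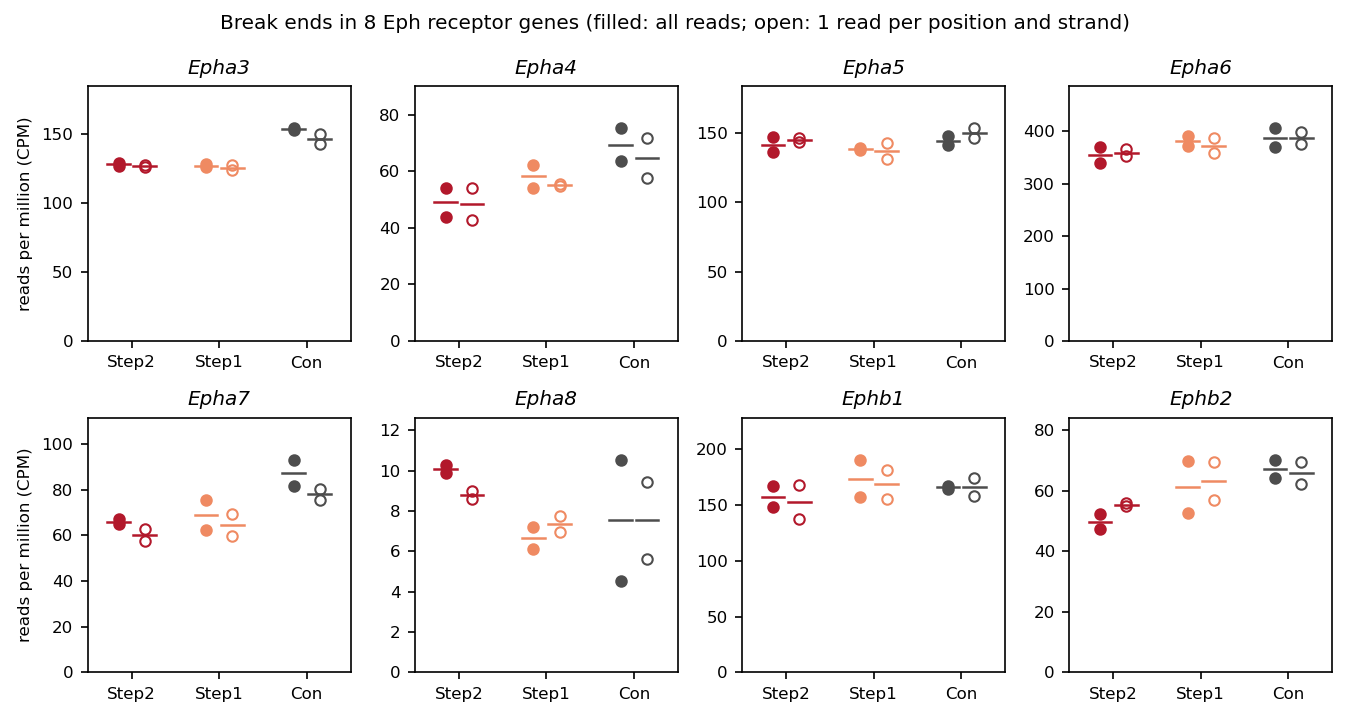
CPM of each receptor gene (y axis, from 0, with its own scale in each panel) by group (x axis), where each point is a library, filled for all reads and open for 1 read per position and strand, and short lines are group means of 2 libraries. In Epha3, Epha4 and Epha7 both Con libraries lie above the 4 others, while in Epha8 the Con libraries, at 4.54 and 10.5 CPM, enclose the rest.

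No receptor gene passed the test in any comparison. All 8 genes passed the filter of at least 10 reads in 2 libraries with both counts. For Step1 against Con, 0 of 8 were called by limma at an adjusted p of 0.05, where 0.123% of the 13811 genes tested were, and for 1 read per position and strand 0 of 8 against 0.118% of 12715. For Step2 against Con, 0 of 8 were called with either count, against 0.0941% and 0.126% of all genes tested. For Step2 against Step1, 0 of 8 were called with either count, against 0.0434% and 0.0315%. At an unadjusted p below 0.05, all reads, 2 of 8 were lower in Step1 against Con (Epha3 and Epha7) where 4.69% of all genes tested were, and 4 of 8 were lower in Step2 against Con (Epha3, Epha4, Epha7 and Ephb2) where 4.68% were. By the count of 1 read per position and strand these numbers were 2 of 8 in Step1 against Con (Epha3 and Epha7), against 6.13% of all genes tested, and 2 of 8 in Step2 against Con (Epha4 and Epha7), against 4.97%. Among genes of at least 100 kb the shares that were lower at that level were larger. They were 8.78% for Step1 and 10.4% for Step2 against Con with all reads, and 12% and 12.6% with the other count. None of the 8 receptors reached that level in Step2 against Step1 with either count, and limma-trend called none of the 8 in any comparison either. The lowest adjusted p of any refit over the 20 alternative settings was 0.154, for Epha4 in Step2 against Con without replicate 1 of Con.

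Most receptor genes had negative fold changes in both Step groups against Con, as did most long genes. For Step1 against Con, 7 of 8 were negative with a median of -0.10. Over all genes tested 54.7% were negative with a median of -0.04, and over the genes of at least 100 kb 63.8% with -0.06. For Step2 against Con, 7 of 8 were negative with a median of -0.19, against 54.0% with -0.04 over all genes and 62.5% with -0.07 over long genes. For Step2 against Step1, 5 of 8 were negative with a median of -0.08, against 50.2% with -0.002 over all genes and 52.2% with -0.01 over long genes. Counted as 1 read per position and strand, 6, 7 and 5 of 8 were negative, with medians of -0.10, -0.17 and -0.07, in the same order of comparisons. By that count 58.5%, 56.0% and 48.2% of all genes tested were negative, and 66.7%, 65.5% and 51.2% of long genes. Both Step1 libraries lay below both Con libraries in 4 of 8 genes, against 21.3% of all genes and 28.5% of long genes. With 1 read per position and strand they did so in 4 of 8, against 23.8% of all genes and 32.9% of long genes. Both Step2 libraries lay below both Con libraries in 4 of 8 genes, against 21.7% of all genes and 29.4% of long genes. With 1 read per position and strand they did so in 6 of 8, against 23.1% of all genes and 33% of long genes. Both Step2 libraries lay below both Step1 libraries in 2 of 8, against 17.9% and 18.3%. The comparisons with Con share the Con libraries, so their signs are not independent.

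**Figure D4:**
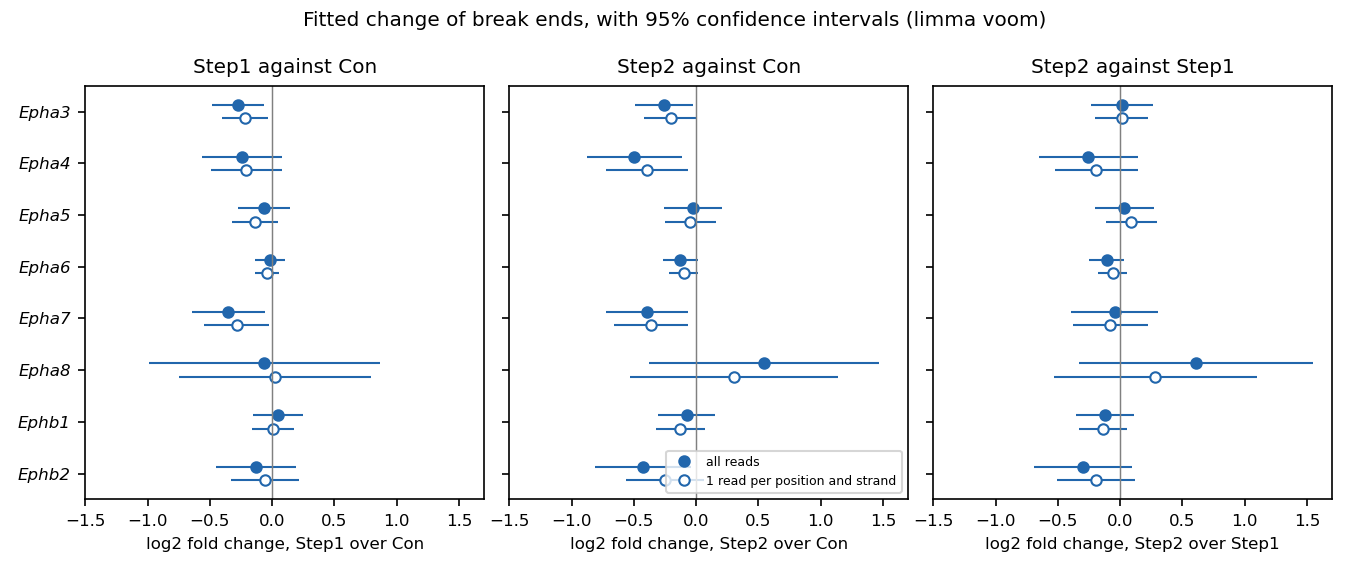
Fitted log2 fold changes (x axis) of the 8 receptor genes (rows) in the 3 comparisons, with 95% confidence intervals from limma voom; filled points use all reads and open points 1 read per position and strand. The intervals of Epha3 and Epha7 lie below 0 for Step1 against Con, while all intervals for Step2 against Step1 include 0.

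Summed over the 8 genes, the share of reads was lowest in Step2 and highest in Con. It was 0.0942% and 0.0972% in Step2, 0.101% and 0.102% in Step1, and 0.106% and 0.110% in Con. The means were 0.0957% ± 0.0021 in Step2, 0.102% ± 0.0006 in Step1 and 0.108% ± 0.0030 in Con (SD, n = 2 each). The libraries of any pair of groups did not overlap, which with 2 libraries against 2 gives p = 0.33 in the exact two-sided permutation test, the smallest value it can give. The differences of the means were -0.0067 percentage points for Step1 against Con, -0.0125 for Step2 against Con and -0.0058 for Step2 against Step1. In sequencing run 1 alone they were -0.0032, -0.0133 and -0.0101, and in run 2 alone -0.0095, -0.0124 and -0.0029, in the same order of comparisons. The other 2482 genes of at least 100 kb also took a smaller share, 24.5% and 24.5% of the reads in Step2, 24.7% and 24.7% in Step1, and 25.6% and 25.9% in Con. Relative to those long genes, the receptors made up 0.385% and 0.397% in Step2, 0.410% and 0.414% in Step1, and 0.414% and 0.426% in Con, so that the higher Step1 library and the lower Con library came out nearly equal.

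**Figure D5:**
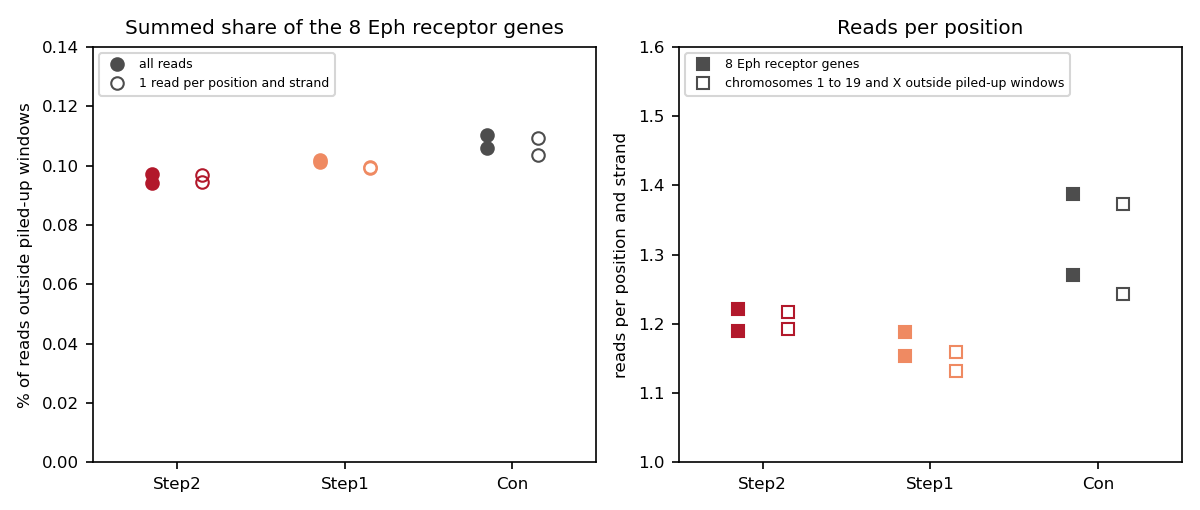
Left, percent of reads outside piled-up windows that lay in the 8 receptor genes (y axis, from 0) by group, filled for all reads and open for 1 read per position and strand. Right, reads per position and strand in the 8 genes (filled) and over chromosomes 1 to 19 and X (open), on an axis that starts at 1; each point is a library, and Con has the highest values in both panels.

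Windows of 100 kb with their midpoint in a receptor gene, which can reach beyond its ends as those of Epha8 and Epha7 do, gave no call. By limma, 0 of the 27 windows passed the adjusted threshold in Step1 against Con, where 0.0158% of the 25381 windows tested did, 0 in Step2 against Con, where 0.0906% did, and 0 in Step2 against Step1, where 0.0433% did. Unadjusted p-values were below 0.05 in 1, 2 and 0 of them, in the same order of comparisons, where 7.27%, 8.25% and 4.29% of all windows were. The window for Step1 against Con, in Ephb1 405 kb from its start, was higher (0.41 ± 0.20). Those for Step2 against Con, in Epha3 and Epha4, were lower. With 1 read per position and strand the numbers were 2, 0 and 2, against 8.28%, 8.12% and 5.51% of all windows. In each comparison with 2 such windows, 1 was higher and the other lower. With all reads the fold change was negative in 18, 18 and 15 of the 27, where 48.3%, 48.8% and 50.7% of all windows were negative. All windows include those outside genes. Of gene bodies of at least 100 kb, 63.8%, 62.5% and 52.2% were negative, and windows in other long genes were not set apart. With 1 read per position and strand 17, 19 and 16 of the 27 were negative, against 49.6%, 49.5% and 49.9% of all windows. The most negative with all reads was the Epha3 window 214 kb from the start, chr16:63600001-63700000, with 35.0 and 31.0 CPM in Step2, 42.5 and 43.3 in Step1, and 46.3 and 55.0 in Con. Its log2 fold change for Step2 against Con was -0.60 ± 0.23, with an unadjusted p of 0.0096 and an adjusted p of 0.403. This window holds the Epha3 stack of 17 reads in replicate 2 of Con. Counting 1 read per position and strand, its value was -0.36 ± 0.19, with an unadjusted p of 0.0631 and an adjusted p of 0.644.

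Among the other genes of the Eph system, a single one was called. None of the 6 other Eph receptors (Epha1, Epha2, Epha10, Ephb3, Ephb4 and Ephb6) was called in any comparison. With all reads 2 of the 6 were negative for Step1 against Con with a median of 0.39, 2 for Step2 against Con with a median of 0.21, and 5 for Step2 against Step1 with a median of -0.08. By the other count, 2, 3 and 4 were negative with medians of 0.20, -0.01 and -0.12. At an unadjusted p below 0.05 by limma, 1 of the 6 was lower in Step1 against Con with either count. Of all genes tested, 4.69% and 6.13% were. None of the 6 reached that level in the other comparisons. Epha10 had 11.6 and 11.3 CPM in Step2, 12.7 and 12.4 in Step1, and 12.7 and 18.3 in Con, with -0.28 ± 0.32 for Step1 against Con. Ephb4 had 8.91 and 11.99 CPM in Step2, 13.6 and 9.78 in Step1, and 14.1 and 5.50 in Con, with 0.40 ± 0.40 for Step1 against Con. Both genes rest on fewer than 30 reads per library on average, and their groups overlapped in part. Of the 8 ephrin ligands only Efna5, Efnb1 and Efnb2 had enough reads to be tested, and none was called. Efna5, the ligand of graded axon maps, had 109 and 109 CPM in Step2, 99.5 and 128 in Step1, and 123 and 124 in Con, with -0.15 ± 0.12 for Step1 against Con and -0.18 ± 0.13 for Step2 against Con. Efnb2 had 22.6 and 14.1 CPM in Step2, 23.2 and 20.6 in Step1, and 19.5 and 21.5 in Con, with 0.10 ± 0.27 for Step1 against Con and -0.18 ± 0.31 for Step2 against Con.

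Of 38 genes that act with Eph receptors inside the cell, 35 were tested with all reads and none was called. For Step1 against Con 23 of 35 had negative fold changes with a median of -0.05, for Step2 against Con 14 of 35 with 0.03, and for Step2 against Step1 13 of 35 with 0.04. Over all genes tested the shares of negative values were 54.7%, 54.0% and 50.2%, with medians of -0.04, -0.04 and -0.002. With 1 read per position and strand, 34 were tested and Kalrn was called lower in Step1 against Con. Kalrn encodes kalirin, an exchange factor for Rac that acts downstream of EphB receptors in spine growth. It had 234 and 233 CPM in Step2, 215 and 231 in Step1, and 258 and 283 in Con by that count, with -0.28 ± 0.07 for Step1 against Con (adjusted p = 0.0372). With all reads the fold change was -0.34 ± 0.08 (adjusted p = 0.084), and both Step groups lay below Con without overlap. That value was called at a mapping quality of 42, with sample quality weights, with the replicate block and with piled-up windows kept in the total. By 1 read per position and strand, the call was lost after scaling by median of ratios (-0.23, adjusted p = 0.342) or trimmed mean of M values (-0.23, adjusted p = 0.343). It was also lost with limma-trend, the replicate block, a 2-group fit, no filter or either sequencing run alone. The call with 1 read per position held without replicate 1 of Con and was lost when any of the other 5 libraries was left out, with an adjusted p of 0.662 without replicate 2 of Con and 0.783 without replicate 1 of Step1.

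The other partners at the ends of the list were not called. For Step1 against Con these were Rgs3 (0.37 ± 0.18), a regulator of G protein signalling bound by ephrin-B, and the adaptors Crk (0.36 ± 0.37) and Grb2 (-0.34 ± 0.26). For Step2 against Con they were Sdcbp (0.42 ± 0.32), the PDZ protein syntenin, Adam10 (0.37 ± 0.19), a protease that cleaves ephrins, the adaptor Nck1 (-0.65 ± 0.30) and Rasa1 (-0.49 ± 0.25), a GTPase-activating protein for Ras. Adam10 had 51.4 and 62.1 CPM in Step2, 36.4 and 36.6 in Step1, and 48.1 and 39.4 in Con. Its log2 fold change for Step2 against Step1, 0.63 ± 0.20, had an unadjusted p of 0.00373 and an adjusted p of 0.999. In that comparison Grb2 had 0.35 ± 0.29, Nck1 -0.35 ± 0.31 and Anks1, a scaffold that binds Eph receptors, -0.29 ± 0.21. Counting 1 read per position and strand also put the exchange factors Vav2 (0.26 ± 0.14 for Step1 against Con) and Vav3 (0.25 ± 0.11 for Step2 against Step1) near the top of the list. By that count Grip1, a PDZ protein that binds B-type receptors, had 208 and 213 CPM in Step2 and 249 and 254 in Step1, with -0.25 ± 0.08 for Step2 against Step1 (unadjusted p = 0.0015, adjusted p = 0.831).

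Lingo2, Aff2 and Auts2 followed the summed receptors most closely over the 6 libraries, counting 1 read per position and strand. Among 507 genes with a mean of at least 200 positions, the smallest root mean square differences of centred log2 CPM were 0.017 for Lingo2, 0.020 for Aff2 and 0.021 for Auts2. Centred on their own mean, the receptors stood at -0.09 and -0.05 in Step2, -0.02 and -0.01 in Step1, and 0.05 and 0.12 in Con. Lingo2 stood at -0.09 and -0.06 in Step2, -0.02 and 0.01 in Step1, and 0.06 and 0.10 in Con. All 3 genes are longer than 500 kb, and the likeness of 6 values that span about 0.2 log2 units is a description only.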

How the data were processed

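The submitters' processing notes and design text give removal of PCR duplicates by molecular identifier, alignment to mm10 with Bowtie2, and conversion with SAMtools and bedtools. Each line of the deposited files is 1 read with its interval, strand and score, the aligner's mapping quality, per the file contents between 11 and 42. The 5′ end of every read was assigned to GENCODE vM21 gene bodies, in windows of 100 kb and within 1 kb of gene starts. Where at least 2 libraries had 10 reads or more, limma's voom (limma 3.58.1 in R 4.3.3) compared the group means over all 6 libraries, and the two-sided p-values of every feature tested were adjusted together by Benjamini-Hochberg, with a threshold of 0.05. The procedure was checked on simulated data. Errors of fold changes are standard errors. Summed shares were compared by exact permutation. The members and all lists were chosen with earlier results of these data known. Named list genes are those called or, with a mean of at least 20 reads, the 2 highest and 2 lowest fold changes. The alternatives were other library scalings, read filters, models, sequencing runs, a GC correction and leaving out each library. Same-numbered libraries did not deviate together over the genes tested (correlations of 0.0327, 0.005 and -0.0051), and replicate numbers were not used as pairs. Such correlations include counting error and cannot exclude a pairing.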

Additional observations from a re-analysis of the deposited data

How the results depend on the processing

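Of 945 refits of the receptor genes under the alternatives, 0 were called and 53 had the opposite sign of fold change, 27 of them with 1 library left out. The cause was not tested. The summed share kept its direction in all 3 comparisons under each alternative run. No start could be fitted, so the alternatives for starts gave no value. For Step1 against Con, all reads, the opposite sign came in sequencing run 1 alone with 0.066 (Epha5), 0.025 (Epha6) and 0.024 (Efna5) and after median-of-ratios scaling with 0.019 (Epha6). It also came after scaling by the trimmed mean of M values with 0.024 (Epha6) and at a mapping quality of 42 with 0.026 (Epha8). A further instance came after removing a GC smooth with 0.043 (Epha8) and in run 2 alone with -0.013 (Ephb1), 0.19 (Epha10) and -0.14 (Efnb2). For Step1 against Con, 1 read per position and strand, the opposite sign came in sequencing run 1 alone with 0.017 (Epha5) and 0.043 (Epha6) and after median-of-ratios scaling with 0.012 (Epha6). The sign also differed after scaling by the trimmed mean of M values with 0.0090 (Epha6) and with the replicate block, -0.0067 (Epha8). Another came at a mapping quality of 42 with -0.015 (Ephb1) and after removing a GC smooth with -0.0027 (Ephb1). The last one came in run 2 alone with -0.034 (Ephb1). For Step2 against Con, all reads, the opposite sign came after median-of-ratios scaling with 0.020 (Epha5) and after scaling by the trimmed mean of M values with 0.022 (Epha5). It likewise came after removing a GC smooth with 0.016 (Epha5) and in run 2 alone with 0.014 (Epha5). For Step2 against Con, 1 read per position and strand, the opposite sign came after median-of-ratios scaling with 0.0057 (Epha5) and after scaling by the trimmed mean of M values with 0.0040 (Epha5). For Step2 against Step1, all reads, the opposite sign came in run 2 alone with -0.043 (Epha3) and 0.19 (Efna5) and in sequencing run 1 alone with -0.13 (Epha5), 0.76 (Epha10) and 0.24 (Ephb4). A last one came at a mapping quality of 42 with 0.013 (Efna5). For Step2 against Step1, 1 read per position and strand, the opposite sign came in run 2 alone with -0.060 (Epha3) and 0.0030 (Epha6) and in sequencing run 1 alone with -0.12 (Epha5). Leaving out each library in turn gave ranges on both sides of 0 for the genes that follow. Ranges for Step1 against Con, all reads, were Epha6 -0.085 to 0.049, Epha8 -0.65 to 0.52, Ephb1 -0.080 to 0.20 and Ephb2 -0.35 to 0.058. Others were Ephb4 -0.26 to 1.06, Efna5 -0.31 to 0.048, Rgs3 -0.017 to 0.75 and Crk -0.16 to 0.88. Ranges for Step1 against Con, 1 read per position and strand, were Epha6 -0.10 to 0.0050, Epha8 -0.36 to 0.35, Ephb1 -0.089 to 0.13 and Ephb2 -0.21 to 0.076. Ranges for Step2 against Con, all reads, were Epha5 -0.087 to 0.028, Epha8 -0.046 to 1.13, Ephb1 -0.16 to 0.0096 and Ephb4 -0.42 to 0.90. The remaining one was Efnb2 -0.52 to 0.15. Ranges for Step2 against Con, 1 read per position and strand, were Epha8 -0.081 to 0.64 and Ephb1 -0.27 to 0.019. Ranges for Step2 against Step1, all reads, were Epha3 -0.0010 to 0.028, Epha5 -0.024 to 0.090, Epha7 -0.19 to 0.088 and Ephb1 -0.28 to 0.0043. Others were Ephb4 -0.37 to 0.087, Efnb2 -0.62 to 0.048 and Efna5 -0.23 to 0.13. Ranges for Step2 against Step1, 1 read per position and strand, were Epha3 -0.0064 to 0.032, Epha6 -0.11 to 0.0018, Epha7 -0.20 to 0.020 and Ephb1 -0.27 to 0.010.

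With the replicate block, no receptor gene was called, and Kalrn in Step1 against Con had -0.34 with all reads (adjusted p = 0.0212) and -0.28 with 1 read per position and strand (adjusted p = 0.0682). Whether same-numbered libraries belong together is not given by the labels. Counts of all genes called by limma with all reads ranged from 2 to 148 for Step1 against Con (17 as reported), 1 to 106 for Step2 against Con (13) and 2 to 11 for Step2 against Step1 (6). With 1 read per position and strand they ranged from 0 to 46 (15), 0 to 26 (16) and 1 to 5 (4). Depth limits Epha8, with 90 reads in all, and the starts most; n = 2 per group limits every comparison.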
